A study of Arabidopsis thaliana with 4 samples.

Results

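The 4 families of genes described here loosen or remodel the plant cell wall or modify its polysaccharides. They were the expansins, the TBL genes (TRICHOME BIREFRINGENCE-LIKE), the GH9 endoglucanases and the XTH genes (xyloglucan endotransglucosylase/hydrolases), followed in the shoots of Arabidopsis. Members were picked by gene symbol alone, from probe sets that the platform annotation assigns to a single gene. This gave 64 genes, each by its probe set of highest mean, of 13356 distinct genes named on the array and 22746 probe sets tested. They comprised 18 expansins, 22 TBL genes, 15 GH9 genes and 9 XTH genes. By subfamily there were 10 EXPA, 4 EXPB, 3 EXLA and 1 EXLB gene among the expansins, and 2 GH9A, 10 GH9B and 3 GH9C genes.

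The mutant plants were jaw-D (jaw-d in the labels), an activation-tagged line in which enhancers of the inserted tag raise the microRNA miR319a, and the controls were Columbia plants without a stated tag. RNA came from all aerial parts of plants aged 2 weeks, and 2 arrays were made of jaw-D and 2 of control. The labels name jaw-D as 1 line, and the tag is present in the whole plant. In which organs or cell types miR319a is raised was not measured here. Whether the 2 samples of a group are separate plantings is not stated, so every p-value reflects the spread between these particular samples, which can be purely technical.

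A growing plant cell is held by cellulose fibrils tied together by xyloglucan and embedded in pectin, and it enlarges when this wall yields to turgor. Alpha-expansins (EXPA) and beta-expansins (EXPB) let wall polymers slide without cutting them, while the function of the expansin-like EXLA and EXLB proteins is less well known. GH9 enzymes cut beta-glucan chains, XTH enzymes cut xyloglucan and rejoin or hydrolyse it, and many TBL proteins add acetyl groups to xylan, mannan, xyloglucan or pectin. In growing leaves members of these families act while cells expand, and miR319a acts on transcripts of TCP factors, regulators known to limit the growth of leaves.

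The deposited intensities had a 2% trimmed mean of 2500.2 units on each array, and their medians were 1139 and 1146 units in jaw-D and 1069 and 1032 units in control. All levels below are intensities after quantile normalization between the 4 arrays. All differences are jaw-D minus control on the scale log2(intensity + 302.3 units), which understates the change of dim probe sets. Intervals are 95% intervals from limma, and "rose" or "fell" is used at an adjusted p under 0.05 over all 22746 probe sets. A gene whose deposited group means both lie at or under 352.6 units, the highest value of the Bacillus subtilis control probe sets, is called near background. Where dim probe sets are left out of a fit, their deposited mean over all 4 arrays is at or under 352.6 units.

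In jaw-D, 6 genes rose: the expansin genes EXPB3, EXPA15 and EXPA4, the TBL genes TBL36 and TBL38, and the endoglucanase gene GH9B13. They are 6 of 64 members, or 9.38%, against 1.64% of all probe sets called higher (4.19% called in either direction). None of the 64 fell in limma, against 2.54% of all probe sets, and at an unadjusted p under 0.05 there were 11 higher members and 1 lower (10.1% and 9.79% of all probe sets). The rises were 3 of 18 expansins (16.7%), 2 of 22 TBL genes (9.09%), 1 of 15 GH9 genes (6.67%) and 0 of 9 XTH genes, where none passed unadjusted either. With any 1 array left out none of the 6 passed in limma (adjusted p 0.117 to 0.226), and 0% of all probe sets were called higher, while their differences stayed between 0.47 and 1.18. At an unadjusted p under 0.05, 9 and 13 members were higher without jaw-D array 1 and 2 (7.26% and 7.46% of all probe sets), and 7 and 13 without control array 1 and 2 (7.53% and 9.74%). Without the variance trend of limma none of the 6 passed (adjusted p 0.0601 to 0.1), against 0.0615% of all probe sets called higher, and 11 members were higher unadjusted (9.36% of all probe sets).

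EXPB3 (AT4G28250), a beta-expansin gene, gave 7731 and 8062 units on the jaw-D arrays, against 4978 and 5161 units on the control arrays. Both jaw-D arrays lay above both control arrays, and the lower jaw-D value was 1.498 times the higher control value. Mean intensity was 7897 ± 234 units in jaw-D and 5070 ± 129 units in control (SD, n = 2 each), a ratio of 1.56. On the log2 scale the difference was 0.61 ± 0.07 (SE), at an adjusted p of 0.0208. EXPB3 is the only one of the 4 beta-expansin genes that passed.

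The alpha-expansin gene EXPA15 (AT2G03090) stood at 4192 and 4393 units in jaw-D and at 2432 and 2656 units in control. The groups were separate, with the lower jaw-D value at 1.578 times the higher control value. The ratio of means was 1.69, the log2 difference 0.69 ± 0.09 and the adjusted p 0.0242.

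EXPA4 (AT2G39700), another alpha-expansin gene, was measured at 8402 and 8158 units in jaw-D, against 5880 and 5688 units in control. Its replicate values were close in both groups and did not overlap between them. The ratio of 1.43 was the smallest of the 6 rises, with a log2 difference of 0.50 ± 0.07 and an adjusted p of 0.0275. Taking the array number as a block gave the same difference with an adjusted p of 0.051.

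**Figure D1:**
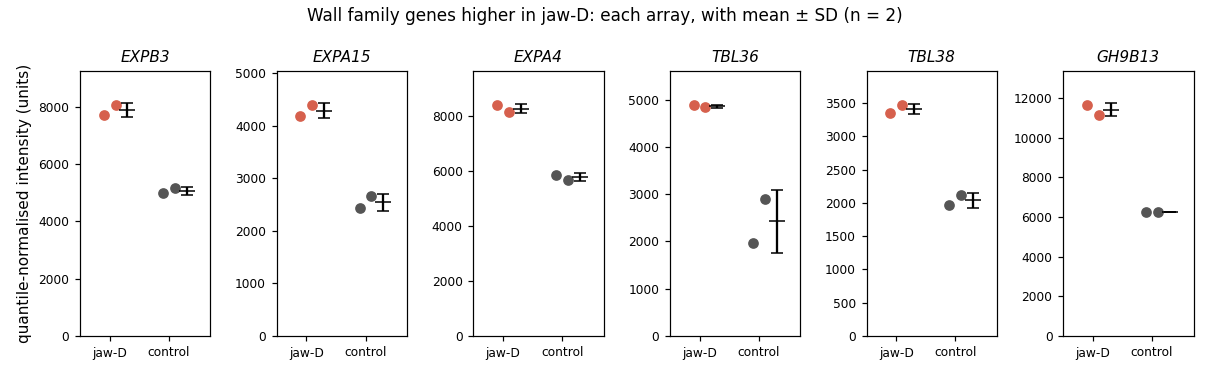
Quantile-normalised intensity (linear axis from 0, in units) of the 6 wall family genes called higher in jaw-D. Points are single arrays, jaw-D left and control right, and the black marks are mean ± SD (n = 2). All 12 jaw-D points lie above the control points of their gene, and TBL36 has the widest spread between control arrays, at 1957 and 2896 units.

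Among the 15 expansin genes that did not pass, differences ran from -0.54 to 0.71. The expansin-like gene EXLA2 (AT4G38400) had 1125 and 992 units in jaw-D, against 452 and 615 units in control. Its groups were separate with a log2 difference of 0.71 ± 0.16, but the control arrays differed by 1.361 times and the adjusted p was 0.0763. EXPA15 had a similar log2 difference of 0.69, but the ratios of means were 1.985 in EXLA2 and 1.687 in EXPA15. With the constant added before the log2 step (the pseudocount) at 0.1 times its value, EXLA2 differed by 0.96 and EXPA15 by 0.75. At 4 times its value EXLA2 differed by 0.38 and EXPA15 by 0.55, so which was larger depended on the pseudocount. On the values as deposited EXLA2 passed (0.76, adjusted p 0.0496), and it also passed when dim probe sets were left out before the fit (adjusted p 0.00996).

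On the log2 scale used here, EXPA16 was the member with the most negative difference. It had 351 and 523 units in jaw-D, against 740 and 791 units in control, with a log2 difference of -0.54 ± 0.17 (interval -0.95 to -0.13, adjusted p 0.151). Both jaw-D arrays were below both control arrays, so this alpha-expansin ran opposite in sign to EXPA4 and EXPA15 without passing the test. EXPA18, a root-hair expansin gene, showed 380 and 486 units in jaw-D and 593 and 551 units in control (-0.25, adjusted p 0.424). EXPA7, the other root-hair expansin gene, was near background and its jaw-D arrays disagreed, at 87.0 and 520.1 units, against 274.7 and 351.4 units in control.

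EXPA8 had 3365 and 2696 units in jaw-D, against 2544 and 2345 units in control (0.27, interval -0.04 to 0.58, adjusted p 0.308). Its groups did not overlap, and neither did those of EXLA1 (0.32, adjusted p 0.396) and EXPA20 (0.26, adjusted p 0.468). In all of these the jaw-D values were the higher ones, as in 25.5% of all probe sets. The margins were small, the lower jaw-D value being 1.06, 1.048 and 1.016 times the higher control value in EXPA8, EXLA1 and EXPA20. EXLB1 differed by 0.13, and EXPA9, EXPB1, EXPB2 and EXPB5 by -0.19 to -0.04. EXPA21, EXPA24 and EXLA3 were near background, which makes 4 of 18 expansins there with EXPA7.

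In the TBL family, TBL36 (AT3G54260) had the largest positive difference of all 64 members on the log2 scale used here. Its intensity was 4878 and 4837 units in jaw-D, against 1957 and 2896 units in control. The jaw-D arrays nearly coincided while the control arrays differed by 1.479 times, and the lower jaw-D value was still 1.67 times the higher control value. The means were 4858 ± 29.1 units in jaw-D and 2427 ± 663 units in control, a ratio of 2.002, with a log2 difference of 0.94 ± 0.17 and an adjusted p of 0.0436. Leaving out control array 1 gave 0.69 and leaving out control array 2 gave 1.18.

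TBL38 (AT1G29050), whose protein has been described as a pectin acetylesterase in the seed coat, read 3356 and 3465 units in jaw-D, against 1960 and 2117 units in control. Replicates were close in both groups and the groups were separate. The ratio of means was 1.67, the log2 difference 0.67 ± 0.09 and the adjusted p 0.0275.

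The other 20 TBL genes had differences between -0.37 and 0.44, and the intervals of 18 of them included 0. TBL45 came nearest to the threshold, with 13300 and 11831 units in jaw-D against 9536 and 10338 units in control (0.33 ± 0.09, adjusted p 0.105). When dim probe sets were left out before the fit, TBL45 passed at an adjusted p of 0.0386. TBL41 had 1099 and 1076 units in jaw-D, against 585 and 883 units in control (0.44, adjusted p 0.252). In each of these 2 genes both jaw-D arrays were the higher ones.

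Of the measured TBL genes, 5 are known for acetylation of xylan, and none of these passed. The highest difference among them was that of TBL35, with 1945 and 1975 units in jaw-D, against 1374 and 1646 units in control (0.32, adjusted p 0.217). TBL28, TBL30, TBL32 and TBL34 differed by 0.17, -0.05, -0.16 and -0.07, and their groups overlapped. The TBL32 probe set carries the suffix _s_at, a mark of probes shared between similar transcripts, whereas the other 63 members have plain probe sets.

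The 3 measured genes known for acetylation of mannan did not pass either. TBL25 was split between its jaw-D arrays, at 5327 and 3702 units, against 3916 and 3723 units in control (0.20, interval -0.20 to 0.61). TBL23 differed by -0.04 and TBL26 by -0.19. Small positive differences with separate groups were seen in TBL39 (0.19, interval -0.03 to 0.41), TBL37 (0.19, interval -0.04 to 0.43) and TBL18 (0.17, interval -0.12 to 0.47).

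The most negative TBL differences were at low intensity. TBL15 gave 300 and 407 units in jaw-D, against 649 and 415 units in control (-0.34, adjusted p 0.407), so that control array 1 alone stood well apart. TBL42 was near background, at 80.4 and 160.2 units in jaw-D and 108.4 and 415.5 units in control, and its difference of -0.37 became 0.03 without control array 2. TBL20, TBL21 and TBL43 were near background as well, and TBL16 and TBL19 differed by 0.01 and 0.06.

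**Figure D2:**
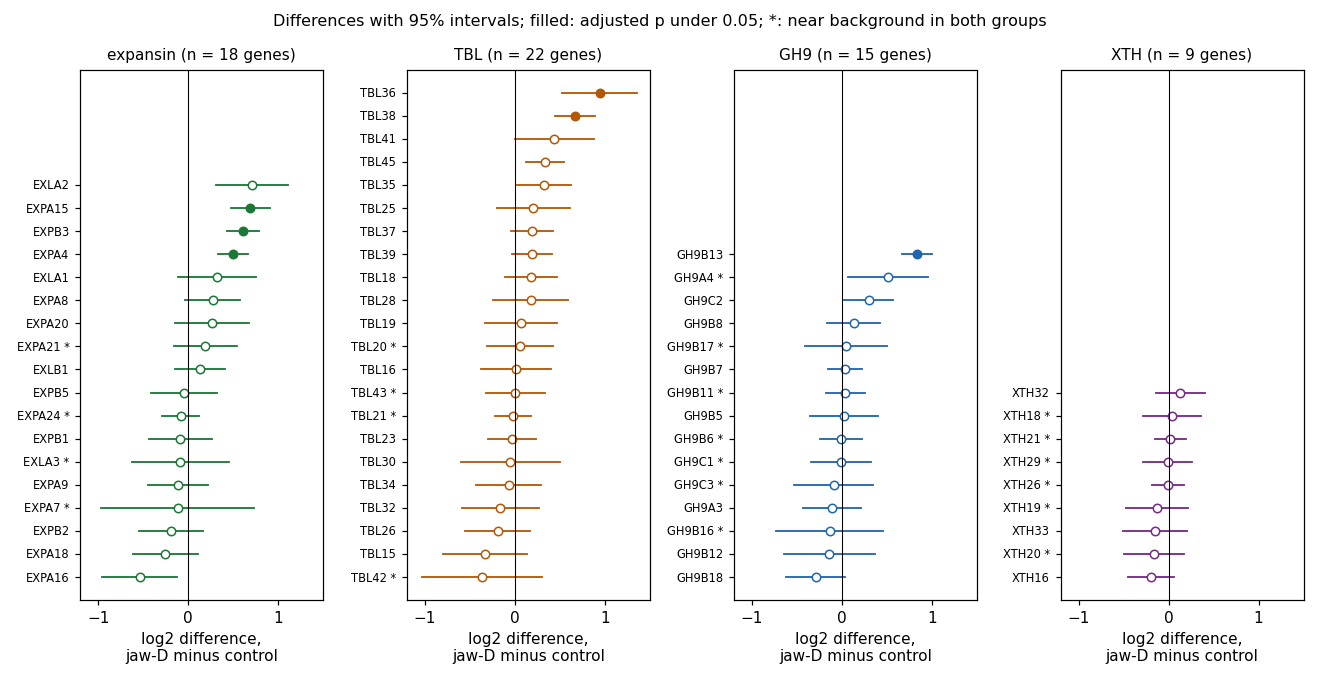
Log2 differences (jaw-D minus control) of all 64 members by family, with 95% intervals from limma. Filled points passed at an adjusted p under 0.05, and asterisks mark the 21 genes near background in both groups. The filled points are 3 expansins, 2 TBL genes and 1 GH9 gene, all right of 0, and all 9 XTH intervals include 0.

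GH9B13 (AT4G02290), a secreted-type endoglucanase gene, had the smallest p of all members. Its intensity was 11636 and 11170 units in jaw-D, against 6255 and 6265 units in control. The 2 control arrays were almost equal, and the lower jaw-D value was 1.783 times the higher control value. The means were 11403 ± 330 units in jaw-D and 6260 ± 6.9 units in control (SD, n = 2 each), a ratio of 1.82. The log2 difference was 0.83 ± 0.07 and the adjusted p 0.0135.

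The remaining 14 GH9 genes did not pass. Among the other GH9B genes, GH9B7 had 12303 and 13332 units in jaw-D, against 12929 and 12004 units in control (0.04, interval -0.15 to 0.23, adjusted p 0.851), an interval that lies below that of GH9B13 (0.67 to 0.998). GH9B18 read 825 and 937 units in jaw-D, against 1186 and 1097 units in control (-0.29, interval -0.62 to 0.04, adjusted p 0.312). Its jaw-D arrays were both below its control arrays. GH9B8 differed by 0.13 (adjusted p 0.617) and GH9B5 by 0.02, and GH9B12 (-0.14) changed sign without control array 1. GH9B6, GH9B11, GH9B16 and GH9B17 were near background.

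GH9C proteins carry a carbohydrate-binding module behind the catalytic domain. The one GH9C gene above background, GH9C2, had 8376 and 6823 units in jaw-D, against 5942 and 6255 units in control (0.30, interval 0.03 to 0.57, adjusted p 0.211). Its groups were separate, with the 2 jaw-D arrays further apart than the 2 control arrays. GH9A proteins are anchored in the membrane and are relatives of KORRIGAN, a cellulase needed for cellulose synthesis. GH9A3, also called KOR3, had 850 and 870 units in jaw-D, against 995 and 907 units in control (-0.11, adjusted p 0.734). GH9A4 was near background, at 295.5 and 392.9 units in jaw-D and 87.0 and 220.6 units in control (0.51, adjusted p 0.19), and its difference moved to 1.11 when the pseudocount was cut to 0.1 times, and to 0.19 when it was raised 4 times.

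None of the 9 XTH genes picked by symbol passed, and their differences spanned -0.20 to 0.13. EXGT-A3, which is XTH27 by synonym and was not counted, lay outside this span at -0.23 (adjusted p 0.26). Of the 9 XTH probe sets 6 (66.7%) were near background, against 25.6% of all probe sets, and 0.498% of such probe sets passed in the whole series. XTH16 had 5620 and 4630 units in jaw-D, against 5992 and 5789 units in control (-0.20, interval -0.46 to 0.06, adjusted p 0.385). Both of its jaw-D arrays were below the control arrays.

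XTH32, of the branch of the family that is thought to hydrolyse xyloglucan, showed 7589 and 6135 units in jaw-D, against 6085 and 6318 units in control (0.13, interval -0.14 to 0.41, adjusted p 0.589). The higher jaw-D array lay above both control arrays and the lower one between them. XTH33 had 677 and 568 units in jaw-D and 759 and 686 units in control (-0.15, interval -0.51 to 0.21). The near-background XTH20 differed by -0.16, XTH18 by 0.04 and XTH19 by -0.13. XTH21, XTH26 and XTH29 were near background too, and differed by 0.02 or less in size.

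Set side by side, the median log2 difference was 0.04 over the expansins, 0.06 over the TBL genes, 0.02 over the GH9 genes and -0.01 over the XTH genes, against 0.01 over all probe sets. These medians include the near-background genes. With dim probe sets left out they were 0.20 over 14 expansins, 0.17 over 18 TBL genes, 0.03 over 8 GH9 genes and -0.15 over 3 XTH genes, against 0.01 over all probe sets kept. Differences above 0.25 were found in 7 expansins (38.9%), 5 TBL genes (22.7%), 3 GH9 genes (20%) and 0 XTH genes, against 13.7% of all probe sets. Differences below -0.25 were found in 2, 2, 1 and 0 genes of the same families, together 7.81% of members against 13.5% of all probe sets. No test compares one family with another here.

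Both jaw-D arrays exceeded both control arrays in 20 of 64 members (31.2%), against 25.5% of all probe sets. Both lay below in 10 members (15.6%), against 23.6% of all probe sets. By family the members above were 8 expansins, 8 TBL genes, 3 GH9 genes and 1 XTH gene, and those below were 4, 2, 2 and 2. Among those above, XTH21 (at most 21.1 units, log2 difference 0.02) and GH9A4 were near background, as was EXPA24 among those below. Near background, 0 of 21 members passed in limma, against 0.498% of all 5819 such probe sets in either direction. Of the 43 other members 6 passed, all of them higher, against 5.45% of 16927 probe sets in either direction. The share called higher alone was not taken for these probe sets.

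**Figure D3:**
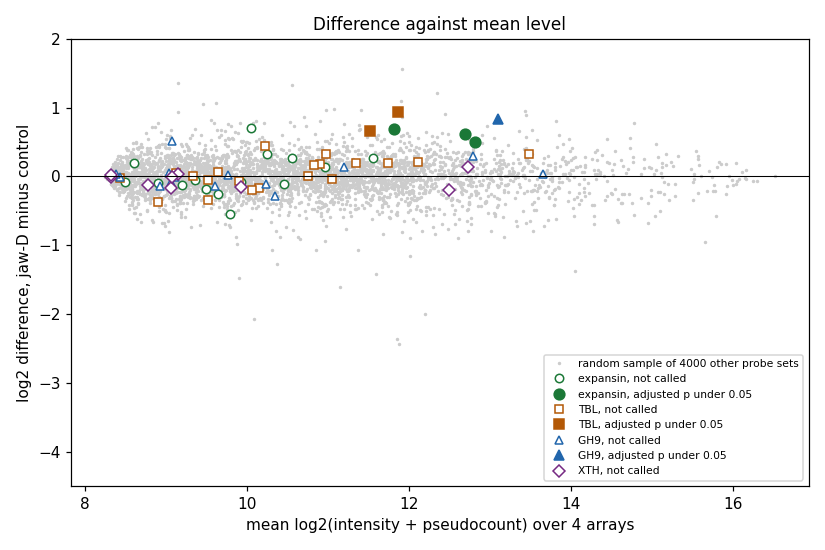
Log2 difference (jaw-D minus control) against the mean log2(intensity + pseudocount) over 4 arrays, for the 64 members and a random sample of 4000 other probe sets in grey. The 6 filled points lie toward the upper edge of the grey cloud for their intensity, and most members lie inside it.

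Several members are direct neighbours on a chromosome in the gene order of the TAIR10.1 assembly. EXLA1 and EXLA3 lie side by side, and EXLA1 had 1136 and 987 units in jaw-D, against 653 and 942 units in control, while EXLA3 was near background in both groups. GH9B16, GH9B17 and GH9B18 form a row of 3, of which GH9B18 alone was above background. In the pair TBL28 and TBL30 both genes were above background, with differences of 0.17 and -0.05. The pairs TBL21 with TBL19 and GH9B11 with GH9B12 each held 1 gene near background, and XTH18 and XTH19 were both there.

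**Figure D4:**
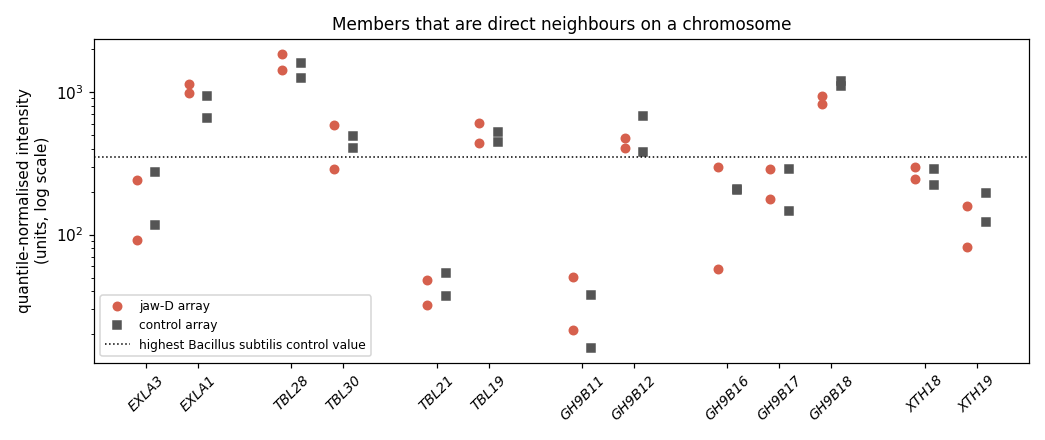
Quantile-normalised intensity on each array (log axis, in units) of members that are direct neighbours, with jaw-D arrays as circles on the left and control arrays as squares on the right of each gene. The dotted line is the highest Bacillus subtilis control value, 352.6 units, and EXLA1 and GH9B18 are the genes here whose jaw-D and control points do not overlap.

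Markers of tissues, found by symbol among the named probe sets, were set beside these results. Of 5 listed markers of green shoot tissue, 3 were measured (RCA, LHCB4.1 and LHCB4.2), with summed intensities of 175517 and 177843 units in jaw-D and 192856 and 191196 units in control. All 3 differences were negative and none passed, LHCB4.2 having the largest in size (-0.19, adjusted p 0.177). Of 7 root markers 2 were measured, EXPA7 and EXPA18. Their sums were 467 and 1007 units in jaw-D and 868 and 902 units in control. EXPA7 was near background, and its jaw-D arrays stood at 87.0 and 520.1 units. EXPA7, EXPA18 and EXPB5 are themselves expansin members, and so are not independent of the family results. EXPB5 was the single measured one of 5 pollen and flower markers (329.6 and 363.1 units in jaw-D, 307.3 and 431.6 units in control), and 0 of 9 listed secondary wall and xylem markers had a named probe set. Outside that list IRX15 and IRX15-L, genes of xylan deposition in secondary walls, were measured, with differences of -0.11 (near background) and -0.09, neither of which passed. The EXPB5 values lay on both sides of the background value of 352.6 units. The part of tissue composition in the rises was not tested. In RNA from whole shoots, fewer cells of a type and less RNA per cell cannot be told apart.

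Among 16 genes picked by symbol from other wall families, none passed in limma, against 4.19% of all probe sets. At an unadjusted p under 0.05, 2 of the 16 were higher and 1 lower, against 10.1% and 9.79% of all probe sets. The members PRP39 and PRP39-2 share a symbol with proline-rich wall proteins but encode splicing factors. PME61, a pectin methylesterase gene, had 6952 and 5739 units in jaw-D, against 4276 and 4525 units in control (0.49 ± 0.11, adjusted p 0.0682), and its groups were separate. It passed with the pseudocount at 0.1 times its value (adjusted p 0.0478) and when dim probe sets were left out (adjusted p 0.0125).

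COB, the COBRA gene that orients cellulose deposition, had 14329 and 13078 units in jaw-D, against 11670 and 10831 units in control (0.28 ± 0.08, adjusted p 0.126). The glucan synthase gene CSLC5, of xyloglucan backbone synthesis, had 3933 and 3489 units in jaw-D and 4637 and 4360 units in control (-0.26, adjusted p 0.194). CSLA03, of mannan synthesis, had 2047 and 1680 units in jaw-D and 2197 and 2406 units in control (-0.27, adjusted p 0.309). The groups of COB were separate with jaw-D higher, and those of CSLC5 and CSLA03 were separate with jaw-D lower.

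**Figure D5:**
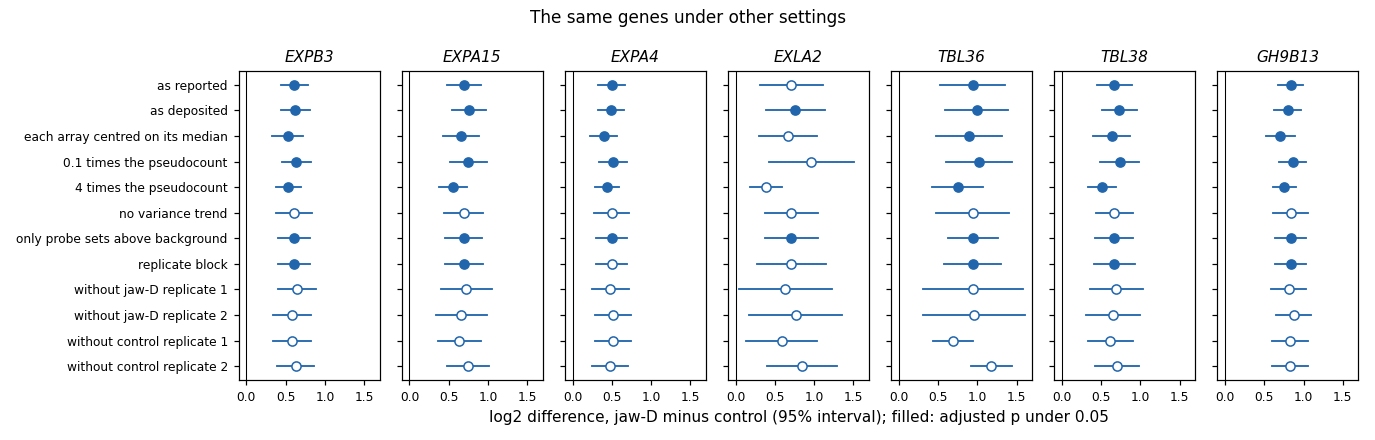
Log2 differences (jaw-D minus control, with 95% intervals) of the 6 called genes and EXLA2 under each setting tried. Filled points passed at an adjusted p under 0.05. Every point and interval lies right of 0, and no gene passed with 1 array left out or without the variance trend.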

How the data were processed

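The deposited table gives 1 linear intensity for each probe set on each array. The authors had brought the arrays to a common trimmed mean before deposit, as the deposited intensities show, with software that the sources used here do not name. The 64 control probe sets were left out. The highest array median exceeded the lowest by 11%, and the 22746 other probe sets were quantile normalised between arrays, raised by 302.3 units, which is the 25th percentile over all 4 arrays, and tested on the log2 scale with limma (version 3.58.1, lmFit and eBayes with a variance trend, R 4.3.3), two-sided, with Benjamini-Hochberg adjustment. The fit was tested on simulated data. Of the probe sets, 13513 had 1 gene, 503 several and 8730 no name here. Names came from the platform annotation, updated through the gene table of TAIR10.1, which matched 13436. Promoter and protein sequences were not used here.

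Genes named by rule were the called members, the 6 markers of the families, the members of each family with the smallest p and the most extreme differences, and the 4 other wall genes with the smallest p. Further members were named after their values were seen. The members and lists were chosen with earlier results of these data known, so that the counts of called members carry no p of their own. Array numbers were not taken as pairs: the deviations of arrays with the same number correlated at -0.021 over all probe sets. Precision is limited by the number of arrays. Alternatives were other scalings, pseudocounts, no variance trend, no dim probe sets, the array number as a block and each array left out.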

Additional observations from a re-analysis of the deposited data

How the results depend on the processing

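All 6 rises passed, with differences of 0.40 to 1.02, as deposited, with arrays centred on their medians and with the pseudocount at 0.1 or 4 times its value. They also passed when dim probe sets were left out, with EXLA2 and TBL45 beside them. That made 8 of 43 members tested, against 1002 of all 16441 probe sets kept that were called higher. As deposited EXLA2 was added, for 7 of 64 members, against 486 of 22746 probe sets called higher. The 6 rises did not pass without the variance trend, where 0 members, 0 expansins, 0 TBL genes and 0 GH9 genes passed. There 11 members were higher unadjusted, and over all probe sets 14 were called higher and 51 lower. Leaving out 1 array gave 0 higher probe sets, 0 to 12 lower ones and 0 members of any family, fewer arrays being tested. With each array centred on its median in place of quantile normalization 248 probe sets were higher and 978 lower (20.2% of calls higher, against 43% as deposited and 39.3% after quantile normalization), and without dim probe sets 1002 and 1148. Centring shifts all genes alike against the deposited values and put the median of all probe sets at -0.06, against 0.04 as deposited. A replicate block, which nothing in the labels calls for, gave 157 and 309 and 5 members, EXPA4 being lost (adjusted p 0.051).

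Of the other wall genes 1 passed at 0.1 times the pseudocount and 1 without dim probe sets, PME61 both times. The TBL median was 0.0984 as deposited, 0.0035 centred, 0.1043 at 0.1 times the pseudocount, 0.1735 without dim probe sets and -0.0102 to 0.1729 with 1 array left out. The XTH median was -0.1058 centred, -0.0668 at 0.1 times the pseudocount and -0.15 without dim probe sets, and the expansin median 0.20 without dim probe sets. Centring also put the GH9 median at -0.0967 and the expansin median at -0.0064, and the GH9 median was -0.0018 as deposited. With 1 array left out the medians spanned 0.08 to 0.12 for the expansins, -0.06 to 0.10 for GH9 and -0.03 to -0.01 for XTH. The sign turned for XTH18 (-0.0465 to 0.1269 with 1 array left out, and -0.0441 centred, which the common shift alone gives from 0.0508 as deposited), XTH32 (-0.0144 to 0.2784), GH9B12 (-0.3971 to 0.1234) and TBL42 (-0.766 to 0.0335). The cause was not tested. Adding the 3 genes with a family name among their synonyms, an alternative chosen after seeing the data, left 6 members called. Each member is represented by 1 probe set, that of highest mean, and another choice of probe set was not run. Dim probe sets limit what could be seen, most of all in the XTH family. The 3 XTH genes above background did not pass either, and the part of dim signal in the XTH result was not tested.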

Other observations

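Among the named genes, 3 carry a family name only among their synonyms and were not counted as members. EXGT-A3, also XTH27, had 5458 and 4713 units in jaw-D, against 5835 and 6134 units in control (log2 difference -0.23 ± 0.09, adjusted p 0.26). Its jaw-D arrays were below its control arrays, as in XTH16. AT2G31110, also TBL40, has 2 probe sets, with differences of 0.05 (adjusted p 0.93) and 0.19 (adjusted p 0.454). AT4G30380, also EXLB2, had at most 36.5 units on any array, near background.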
